A study of Mus musculus with 6 samples.

Results

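Neutrophils store their antimicrobial proteins in granules that are filled at successive stages of maturation. The described genes are 10 mouse genes for content and surface proteins of the secondary (specific) and gelatinase granules: Ltf, Camp, Ngp, Lcn2, Cd177, Chil3, Fcnb, Pglyrp1, Lyz2 and Ly6g. They were chosen by name and matched by Ensembl identifier. All 10 were found among the 46983 genes of the tables, and all 10 were among the 12292 genes with enough reads to be tested. They were read in colonies grown from bone marrow progenitors, in 2 groups of 3 libraries. The first group, KO, is labelled Psip1-KO, and the design writes its genotype as PsipVav/Vav. Vav is the name of a gene whose promoter is active in blood cells and is widely used to drive Cre recombinase, but a Cre transgene is not described in the labels. The second group, WT, is labelled wild type, while the design writes PsipFl/Fl, that is, mice with a floxed Psip1 allele. Both groups came from C57BL/6 mice labelled as 8 to 11 weeks old. In both groups lineage-depleted marrow cells, which are progenitors stripped of mature blood cells, were grown with interleukin-3, interleukin-6 and stem cell factor in methylcellulose for 6 to 7 days. Psip1 encodes LEDGF, a chromatin-bound protein, and the series title asks whether blood formation needs it.

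Secondary granules are made when a maturing neutrophil passes through the myelocyte and metamyelocyte stages, after the primary granules with their proteases and myeloperoxidase. The transcription factor C/EBPε is needed for this programme in mice, and neutrophils without it lack several of its products. Some of the genes, such as Ltf, Camp, Ngp and Ly6g, are among blood cells largely restricted to the neutrophil lineage, while Lyz2 and Chil3 are also made by monocytes and macrophages. In bulk RNA, fewer neutrophils and less RNA per neutrophil cannot be told apart.

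The libraries were of unequal depth. KO replicates 1, 2 and 3 and WT replicates 1 and 2 held 7056614 to 15569088 gene reads and are called deep here, while WT replicate 3 held 27909. In that library 1 read is worth 29.9 CPM (the read count scaled to a common effective library size), so its values carry wide counting intervals, given below as exact 95% Poisson intervals that cover counting error only. KO replicate 2 and WT replicate 3 also stood apart by mitochondrial reads (15.7% and 9.52% of gene reads, against 1.26% to 1.84% in the other 4 libraries) and by multimapping reads (27.0% and 23.0%, against 14.4% to 19.2%). Psip1, which checks the labels, stood at 14.8, 17.6 and 16.3 CPM in KO replicates 1, 2 and 3, against 89.3 and 70.0 CPM in WT replicates 1 and 2 and 3 reads in WT replicate 3. The labels do not tie libraries to animals, so p-values measure only the spread between these libraries, which may be technical in part. Sex-linked reads, given below, differed within each group, so the libraries of a group did not all come from the same animal.

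The start regions of the 3 most read genes that hold a C/EBP-like word, Ngp, Ltf and Lcn2, are shown first because C/EBPε acts on this programme. They are RefSeq windows of build GRCm38.p6, from 250 bases before to 50 bases after the RefSeq start. They run 5′ to 3′ on the strand of the gene, with C/EBP-like words in capitals. RefSeq starts can differ from the gene coordinates given further below, and the windows of Lcn2 and Pglyrp1 lie wholly inside those coordinates. The word searched was TTNNGCAA or, on the other strand, TTGCNNAA. The windows are chr9:111019042-111019341 (plus strand) for Ltf, chr9:110419558-110419857 (plus strand) for Ngp and chr2:32387690-32387989 (minus strand) for Lcn2.
Ltf: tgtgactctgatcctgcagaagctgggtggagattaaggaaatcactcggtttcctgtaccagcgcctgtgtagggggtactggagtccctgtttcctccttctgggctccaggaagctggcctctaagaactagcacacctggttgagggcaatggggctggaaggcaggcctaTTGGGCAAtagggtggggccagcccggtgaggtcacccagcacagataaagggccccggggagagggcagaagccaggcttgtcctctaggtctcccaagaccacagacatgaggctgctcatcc
Ngp: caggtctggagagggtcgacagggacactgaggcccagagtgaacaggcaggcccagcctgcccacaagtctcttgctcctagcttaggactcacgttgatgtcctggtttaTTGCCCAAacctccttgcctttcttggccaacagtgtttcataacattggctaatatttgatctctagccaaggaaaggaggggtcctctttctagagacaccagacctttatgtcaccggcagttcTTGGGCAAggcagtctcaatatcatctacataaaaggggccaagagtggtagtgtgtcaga
Lcn2: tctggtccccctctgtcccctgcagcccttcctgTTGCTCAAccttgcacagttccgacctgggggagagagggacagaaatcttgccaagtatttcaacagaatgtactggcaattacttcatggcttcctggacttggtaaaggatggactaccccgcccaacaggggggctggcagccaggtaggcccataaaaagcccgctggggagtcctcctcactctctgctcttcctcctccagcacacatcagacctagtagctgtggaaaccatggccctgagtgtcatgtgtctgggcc
Ltf and Ngp share the word TTGGGCAA, which begins 75 bases before the start in Ltf and 11 bases before it in Ngp. A further Ngp word, TTGCCCAA, is the same sequence on the other strand. The Lcn2 word is TTGCTCAA. RefSeq windows were found for all 10 genes, with 2 for Ly6g. At least 1 C/EBP-like word stood in the windows of 5 of the 10 genes (Ltf, Ngp, Lcn2, Fcnb and Ly6g), where 10.8% of the 32851 windows of this length hold one. The other 5 (Camp, Cd177, Chil3, Pglyrp1 and Lyz2) held none, and among them are Cd177 and Chil3, whose levels ran close to those of Ngp, as well as Lyz2, whose levels did not. GAGGAA or TTCCTC, the core of PU.1 sites, stood in 5 of the 10 (Ltf, Lcn2, Cd177, Pglyrp1 and Ly6g), against 28.3% of all windows. TGTGGT or ACCACA, a RUNX core, stood in 2 (Ltf and Lyz2), against 16.8%. No matches of different words overlapped in these windows. Camp and Chil3 held none of the 3 words in this window. A match describes letters and not binding.

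None of the 10 genes was called between the genotypes, and every gene but Lcn2 overlapped between the KO libraries and the deep WT libraries. Over all tested genes 8.66% did not overlap in these libraries. By edgeR's quasi-likelihood test with Benjamini-Hochberg adjustment over 12292 genes, 0 of the 10 passed an adjusted p of 0.05, and 0 had an unadjusted p below 0.05. DESeq2 and limma-voom also gave 0 and 0. Over all tested genes 0% were called, and Psip1 itself missed the threshold (log2 fold change -2.32, SE 0.32, adjusted p = 0.0599), so that the absence of calls does not show an absence of difference. Of the fitted log2 fold changes 8 were negative and 2 positive, with a median of -0.27, while over all tested genes 48.0% were negative and the median was 0.01. This direction rested on WT replicate 2: without it, 3 were negative and the median was 0.15. Leaving out any other library kept the median negative. It ranged from -0.07 without KO replicate 2 to -0.85 without KO replicate 1, where 9 were negative. All 10 of the 95% intervals of the log2 fold change included 0. The narrowest, that of Pglyrp1, ran from -1.17 to 0.78, and the widest, that of Lyz2, from -1.24 to 1.79.

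**Figure D1:**
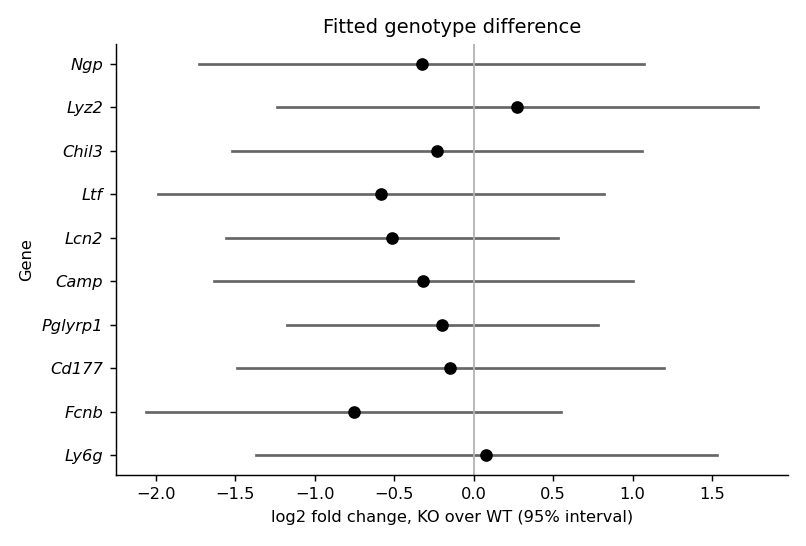
Fitted log2 fold change of each gene, KO over WT, with its 95% interval from edgeR's quasi-likelihood fit, genes ordered by mean CPM over the 5 deep libraries. All 10 intervals include 0, and the points run from -0.76 for Fcnb to 0.28 for Lyz2.

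Iron-binding and siderophore-binding proteins come first. Ltf encodes lactoferrin, which withholds iron from microbes (chromosome 9, 111019271 to 111042767, plus strand, GRCm38). It stood at 6043, 1821 and 1603 CPM in KO replicates 1, 2 and 3, against 2254, 7819 and 4092 CPM in WT replicates 1, 2 and 3 (interval of WT replicate 3, 3436 to 4838). KO replicate 1 and WT replicate 2 were the high libraries and the groups overlapped. The log2 fold change was -0.58 (SE 0.64, 95% interval -1.99 to 0.82). Lcn2 encodes lipocalin 2, which captures bacterial siderophores (chromosome 2, 32384633 to 32388252, minus strand). It stood at 2091, 822 and 1822 CPM in KO replicates 1, 2 and 3, against 2499, 2824 and 1374 CPM in WT replicates 1, 2 and 3 (interval of WT replicate 3, 1006 to 1833). Lcn2 was the 1 gene of the 10 whose KO libraries all lay below both deep WT libraries, a separation in either direction that 8.66% of all tested genes showed, and WT replicate 3 lay inside the KO range. Its log2 fold change was -0.52 (SE 0.48, 95% interval -1.56 to 0.53).

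The cathelin-related antimicrobial genes Camp and Ngp lie on chromosome 9, as Ltf does. Camp encodes the cathelicidin precursor (109847379 to 109849617, minus strand), and Ngp encodes neutrophilic granule protein, a relative of cathelicidins and cystatins (110419747 to 110423012, plus strand). Camp stood at 2662, 1213 and 706 CPM in KO replicates 1, 2 and 3, against 726, 2203 and 2868 CPM in WT replicates 1, 2 and 3 (interval of WT replicate 3, 2323 to 3502). The lowest libraries of each group, KO replicate 3 and WT replicate 1, were alike, and the ranges of the groups overlapped almost fully (log2 fold change -0.32, SE 0.60). Ngp stood at 18076, 5258 and 6422 CPM in KO replicates 1, 2 and 3, against 8051, 19804 and 9409 CPM in WT replicates 1, 2 and 3 (interval of WT replicate 3, 8399 to 10508, log2 fold change -0.33, SE 0.64). It was the fourth most read of the tested genes over the 5 deep libraries, and in KO replicate 1 and WT replicate 2 it exceeded the other libraries.

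Recognition and chitinase-like proteins followed with the same high libraries. Pglyrp1 encodes a peptidoglycan recognition protein (chromosome 7, 18871331 to 18890459, plus strand). It varied least of the 10, at 971, 592 and 408 CPM in KO replicates 1, 2 and 3, against 441, 1024 and 807 CPM in WT replicates 1, 2 and 3 (interval of WT replicate 3, 531 to 1173, log2 fold change -0.20, SE 0.45). Fcnb encodes ficolin B, a lectin of the complement pathway (chromosome 2, 28076378 to 28084885, minus strand). It varied most, 8.89-fold between the lowest and the highest deep library, with 279, 44.0 and 144 CPM in KO replicates 1, 2 and 3, against 210.3 and 391 CPM in WT replicates 1 and 2 and 4 reads in WT replicate 3. Its log2 fold change was the lowest of the 10 (-0.76, SE 0.59, 95% interval -2.06 to 0.55), with KO replicate 2 far below the other KO libraries. Chil3 encodes Ym1, a chitinase-like protein also made by activated macrophages (chromosome 3, 106147554 to 106167564, minus strand). It stood at 6676, 3159 and 3914 CPM in KO replicates 1, 2 and 3, against 3814, 9809 and 2419.5 CPM in WT replicates 1, 2 and 3 (interval of WT replicate 3, 1921 to 3007, log2 fold change -0.23, SE 0.59). The WT libraries thus spanned the whole KO range.

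The surface markers Cd177 and Ly6g, both proteins with a lipid anchor, showed no difference beyond the spread either. Cd177 (chromosome 7, 24743983 to 24760311, minus strand) stood at 1101, 227 and 467 CPM in KO replicates 1, 2 and 3, against 422 and 1174 CPM in WT replicates 1 and 2 and 10 reads in WT replicate 3 (log2 fold change -0.15, SE 0.61). Ly6g, the standard surface marker of mouse neutrophils (chromosome 15, 75155240 to 75159126, plus strand), stood at 239, 149 and 46.3 CPM in KO replicates 1, 2 and 3, against 45.5 and 214 CPM in WT replicates 1 and 2 and 6 reads in WT replicate 3. Its group means were near equal, at 145 ± 96.5 CPM in KO and 146 ± 88.8 CPM in WT (SD, n = 3 each), and the log2 fold change was 0.08 (SE 0.66, 95% interval -1.37 to 1.53).

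Lyz2, which encodes lysozyme M, ran apart from most of the other genes. It lies on the minus strand of chromosome 10 (117277331 to 117282321) and is made by neutrophils, monocytes and macrophages alike. It stood at 6499.5, 3233 and 10489 CPM in KO replicates 1, 2 and 3, against 10826, 4139.6 and 1613 CPM in WT replicates 1, 2 and 3 (interval of WT replicate 3, 1212 to 2105). Here KO replicate 3 and WT replicate 1 were high, and WT replicate 2, the highest deep library for 7 of the other 9 genes, was the second lowest of the deep ones. The log2 fold change was 0.28 (SE 0.69). It turned to -0.15 without WT replicate 3, and Camp, the other gene whose sign rested on that library, turned to 0.058.

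**Figure D2:**
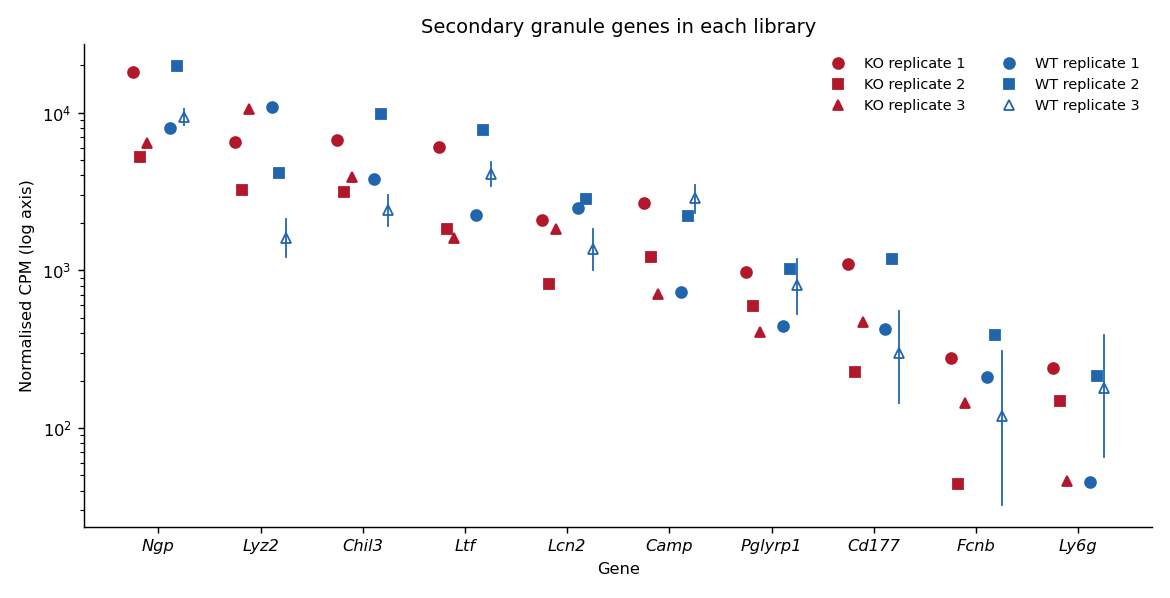
Normalised CPM (log axis) of each gene in each library, KO on the left and WT on the right of each gene, marker shape by replicate, with the open triangle for WT replicate 3 and its exact 95% counting interval. The 2 genotypes overlap for each gene, and KO replicate 1 and WT replicate 2 are high for most genes but not for Lyz2.

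The 10 genes together took 4.46%, 1.48% and 2.53% of gene reads in KO replicates 1, 2 and 3, against 2.82%, 4.84% and 2.78% in WT replicates 1, 2 and 3. The 95% Wilson interval in WT replicate 3 ran from 2.59% to 2.98%. The summed share in KO replicate 2, where mitochondrial genes took 15.7% of gene reads, was below that of every other library, and 6 of the 10 genes had their lowest deep value there. The part of mitochondrial reads in this was not tested. The makeup of the sum differed as much as its size. Lyz2 gave 14.6%, 19.6% and 40.3% of these reads in KO replicates 1, 2 and 3, against 37.0%, 8.38% and 6.96% in WT replicates 1, 2 and 3. Ngp gave 40.5%, 31.8% and 24.7% in the KO libraries, against 27.5%, 40.1% and 40.6% in the WT libraries in the same order. Thus 1 read of Lyz2 was matched by 0.930, 0.563 and 0.153 reads of Ltf in KO replicates 1, 2 and 3, against 0.208, 1.89 and 2.54 reads in WT replicates 1, 2 and 3. KO replicate 3 and WT replicate 1 were the low libraries in that ratio, and the groups overlapped.

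**Figure D3:**
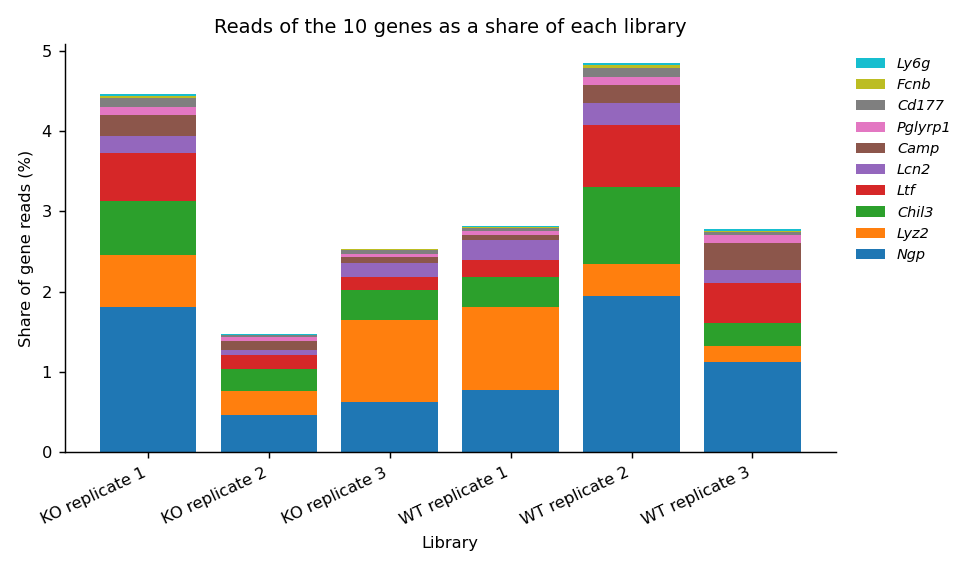
Share of gene reads (%) taken by each of the 10 genes in each library, stacked. KO replicate 1 and WT replicate 2 reach 4.46% and 4.84%, KO replicate 2 has the lowest sum at 1.48%, and the Lyz2 segment is largest in KO replicate 3 and WT replicate 1.

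Per kilobase of annotated exon the order of mean levels over the 5 deep libraries was Ngp (9429 CPM per kilobase), Lyz2 (5348), Chil3 (3354), Camp (1982), Ltf (1133), Lcn2 (767), Pglyrp1 (374), Cd177 (239), Fcnb (159.7) and Ly6g (147). Ranges over the 5 libraries overlapped between all neighbours in this order. Genes further apart separated: Ngp had at least 4303 CPM per kilobase in each deep library, above the highest value of Camp (3512), and Camp had at least 931, above the highest value of Pglyrp1 (557). Within the deep libraries Ngp exceeded Lyz2 per kilobase in KO replicates 1 and 2 and in WT replicate 2, and Lyz2 exceeded Ngp in KO replicate 3 and WT replicate 1.

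Libraries of 1 genotype differed widely in these genes. Within the KO libraries the ratio of the highest to the lowest had a median of 3.60 over the 10 genes, where the median over 12260 tested genes read in all 3 was 1.65. Over both genotypes, in the 5 deep libraries, the median was 3.77, against 1.94 over 12244 tested genes. WT replicate 2 exceeded WT replicate 1 by 4.69-fold for Ly6g, 3.47-fold for Ltf and 3.03-fold for Camp, and stood at 0.382 of it for Lyz2. KO replicate 3 and WT replicate 1 were close, with KO to WT ratios of 0.686 for Fcnb to 1.11 for Cd177, and so were KO replicate 1 and WT replicate 2, with ratios of 0.681 for Chil3 to 1.57 for Lyz2. KO replicate 2 was unlike WT replicate 1, with ratios of 0.209 for Fcnb to 3.27 for Ly6g.

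Each of the closer pairs shared sex-linked reads, but so did KO replicate 2 and WT replicate 1, which were not close. The labels do not give the sex. Xist, read from the inactive X chromosome, held 12107 reads in KO replicate 1 and 5910 in WT replicate 2 and at most 1 in each of the other libraries, which held reads of 4 Y-linked genes instead. In 8 of the 10 genes both Xist libraries lay above the other 3 deep libraries, by 1.33-fold for Fcnb to 2.68-fold for Ltf between the nearest 2 libraries. Of all tested genes 19.4% lay so. Lcn2 and Lyz2 did not. WT replicate 3, with 0 Xist and 5 Y-linked reads, did not follow this for Camp, where it stood at 2868 CPM. The counting interval of that value, 2323 to 3502 CPM, lay above WT replicate 2 (2203 CPM) and included KO replicate 1 (2662 CPM). The part of sex in these levels was not tested. Within the Xist libraries KO replicate 1 stood at 0.773 of WT replicate 2 for Ltf, 0.741 for Lcn2 and 1.12 for Ly6g, with 1 library a genotype and so no test. With the Xist class as a term, edgeR called 0 of the 10 genes, and the log2 fold changes of Ltf and Lcn2 were -0.71 (SE 0.44) and -0.53 (SE 0.45).

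Profiles over the 5 deep libraries were compared as log2 CPM minus the mean of each gene, by the root mean square difference. The closest pairs were Ltf with Ngp (0.23 log2 units), Ngp with Cd177 (0.25), Camp with Pglyrp1 (0.26) and Ngp with Chil3 (0.26). The most distant was Lyz2 with Ly6g (1.64). Lcn2 lay between: it was nearest to Chil3 (0.497), Fcnb (0.504), Ngp (0.565) and Cd177 (0.570), then to Lyz2 (0.67), and further from Ltf (0.77). From the mean profile of the 10 genes, Ngp (0.16) and Chil3 (0.17) differed least, and Ly6g (0.80) and Lyz2 (0.99) most. Among 8814 other genes of at least 10 CPM, whose median distance from that profile was 0.68, the 8 nearest were Marveld1, Smtn, Clec12a, Gca, Nfe2, Hlx, Chdh and Svip, at 0.08 to 0.13. Clec12a, an inhibitory lectin receptor of myeloid cells, stood at 521, 223 and 239.9 CPM in KO replicates 1, 2 and 3, against 272 and 557 CPM in WT replicates 1 and 2. Gca, which encodes the calcium-binding grancalcin of neutrophils, stood at 147, 54.3 and 72.2 CPM in the KO libraries, against 79.0 and 137 CPM in WT replicates 1 and 2. The measure rests on 5 libraries and describes these only.

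**Figure D4:**
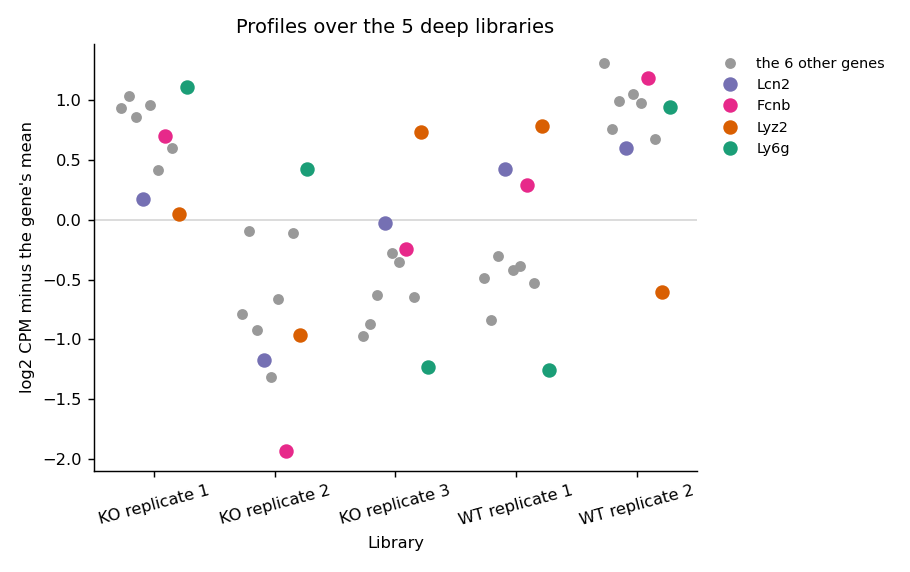
Log2 CPM minus the mean of the gene, for the 10 genes in the 5 deep libraries, with 4 genes in colour. Most genes are high in KO replicate 1 and WT replicate 2, Lyz2 is high in KO replicate 3 and WT replicate 1, and Ly6g is above its mean in KO replicate 2 where Fcnb is at -1.94.

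Other proteins of the secondary and tertiary granules did not share this pattern as a sum, although some of their genes did singly. A list of 23 such genes took 0.770%, 0.614% and 0.783% of gene reads in KO replicates 1, 2 and 3, against 0.854%, 0.704% and 0.688% in WT replicates 1, 2 and 3. Of 22 tested, 0 were called, 14 had a positive and 8 a negative log2 fold change, and the median was 0.15. Its most read members were Cybb and Cyba, the subunits of the membrane part of the NADPH oxidase (-0.38, SE 0.55, and -0.01, SE 0.34), and Itgb2, the beta chain of leukocyte integrins (0.36, SE 0.55). Cybb followed the order of Lyz2 over the deep libraries, with 1019, 449 and 1657 CPM in KO replicates 1, 2 and 3, against 2242 and 959.5 CPM in WT replicates 1 and 2. Mmp9, the gelatinase that names the tertiary granules, stood at 54.6, 23.6 and 7.72 CPM in KO replicates 1, 2 and 3, against 6.17 and 23.7 CPM in WT replicates 1 and 2, the same order of libraries as for Ly6g. Ceacam10 shared that order, and Lrg1 and Qsox1 shared the order of Ngp, while Ceacam1, like Cybb, shared that of Lyz2. The orders of Ly6g and Ngp place KO replicate 1 and WT replicate 2 highest, as in 19.4% of all tested genes. Other genes of the list ran otherwise. Slpi and Adam8 were highest in KO replicate 2 and lowest in KO replicate 3. Olfm4 and Fpr1 were highest in KO replicate 3, and Mmp8 was lowest in WT replicate 2.

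Of 15 regulators of granule genes 14 were tested and read in all 5 deep libraries, and 0 were called, with 6 positive and 8 negative values and a median of -0.07. Cebpe, which encodes C/EBPε, stood at 222, 64.5 and 125 CPM in KO replicates 1, 2 and 3, against 127 and 299.8 CPM in WT replicates 1 and 2. WT replicate 3 held 8 Cebpe reads (239 CPM, interval 103 to 471). The log2 fold change of Cebpe was -0.67 (SE 0.49). As for Fcnb, WT replicate 2 was its highest and KO replicate 2 its lowest deep library. Gfi1, a repressor needed for neutrophil formation, stood at 217, 111 and 50.5 CPM in KO replicates 1, 2 and 3, against 54.4 and 203 CPM in WT replicates 1 and 2 and, like Ly6g, was highest in KO replicate 1, then in WT replicate 2 and then in KO replicate 2. The most read regulators were Spi1, which encodes PU.1 (0.01, SE 0.40), Runx1 (0.16, SE 0.38) and the G-CSF receptor gene Csf3r (0.50, SE 0.38). Lef1 held at most 1 read in any library. Of the genes for receptors and partners of the granule proteins, 7 of 10 were tested and 0 called, with a median of 0.19. The most read were Itgb2, Prtn3 and Itgam (0.36, -0.61 and 0.35), while the lipocalin receptor gene Slc22a17 held at most 14 reads.

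Close relatives of the 10 genes could share reads with them, since reads that match several genes were not counted. Lyz1, the near copy of Lyz2, stood at 4.09, 3.01 and 7.98 CPM in KO replicates 1, 2 and 3, against 12.1 and 3.62 CPM in WT replicates 1 and 2. Chil4, the near copy of Chil3, had 1.38 to 5.39 CPM in the deep libraries. Both were far below their partners, yet Lyz2, Chil3 and Ly6g, which belongs to a family of similar genes, may be understated by reads lost as multimapping. Of 10 tested relatives 0 were called, with a median of -0.26, and Chil1, Ly6c2 and Ly6a were the most read (0.06, -0.39 and 0.47).

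Markers of other stages and cell types moved with the libraries as well. Primary granule genes took 0.926%, 0.425% and 0.401% of gene reads in KO replicates 1, 2 and 3, against 0.434%, 1.14% and 0.709% in WT replicates 1, 2 and 3, and 0 of 10 tested were called (median -0.35). On the log2 scale Mpo, the peroxidase of those granules, differed by -0.41 (SE 0.66), and the protease genes Prtn3 and Elane by -0.61 (SE 0.64) and -0.79 (SE 0.79). Mature neutrophil genes took 6.24%, 3.19% and 2.85% in the KO libraries, against 3.47%, 6.47% and 6.51% in the WT libraries, with 0 of 18 called and a median of -0.07. S100a9 and S100a8, the calprotectin subunits, gave most of these reads (-0.45, SE 0.63, and -0.20, SE 0.55), followed by the stefin gene Stfa2l1 (0.53, SE 0.48). Neutrophil markers were thus read in all 6 libraries of these myeloid colonies. Between the lowest and the highest deep library they differed 5.26-fold for Ly6g, 5.17-fold for Cd177, 2.82-fold for S100a9 and 2.07-fold for S100a8. The neutrophil marker Mmp8 differed 1.67-fold and did not move with the others. It stood at 241, 232 and 227 CPM in KO replicates 1, 2 and 3, against 235 and 145 CPM in WT replicates 1 and 2.

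Mast cell and basophil genes took 0.414%, 1.08% and 0.533% of gene reads in KO replicates 1, 2 and 3, against 0.717%, 0.596% and 0.577% in WT replicates 1, 2 and 3, the highest share lying in KO replicate 2, where the summed share of the 10 granule genes was lowest. Of 17 tested 0 were called, with 8 positive and 9 negative values from -2.53 to 0.75 and a median of -0.07. Cpa3, Mcpt8 and Cyp11a1 were the most read (0.75, -0.07 and 0.38). Monocyte and macrophage genes took 0.383% to 0.587%, highest in KO replicate 2 and lowest in WT replicate 2. Of 20 tested 0 were called, with 9 positive and 11 negative values from -2.35 to 1.91 and a median of -0.08. Lgals3, Ctss and Cd68 were the most read (0.47, 0.45 and 0.37). Eosinophil genes took 0.0517%, 0.0908% and 0.178% in KO replicates 1, 2 and 3, against 0.167%, 0.0601% and 0.0287% in WT replicates 1, 2 and 3, high in the same 2 libraries as Lyz2 (0 of 8 called, median 0.07, Prg2, Epx and Ear6 at 0.33, -0.34 and 0.35). The part of any of these cell types in the granule gene levels was not tested.

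**Figure D5:**
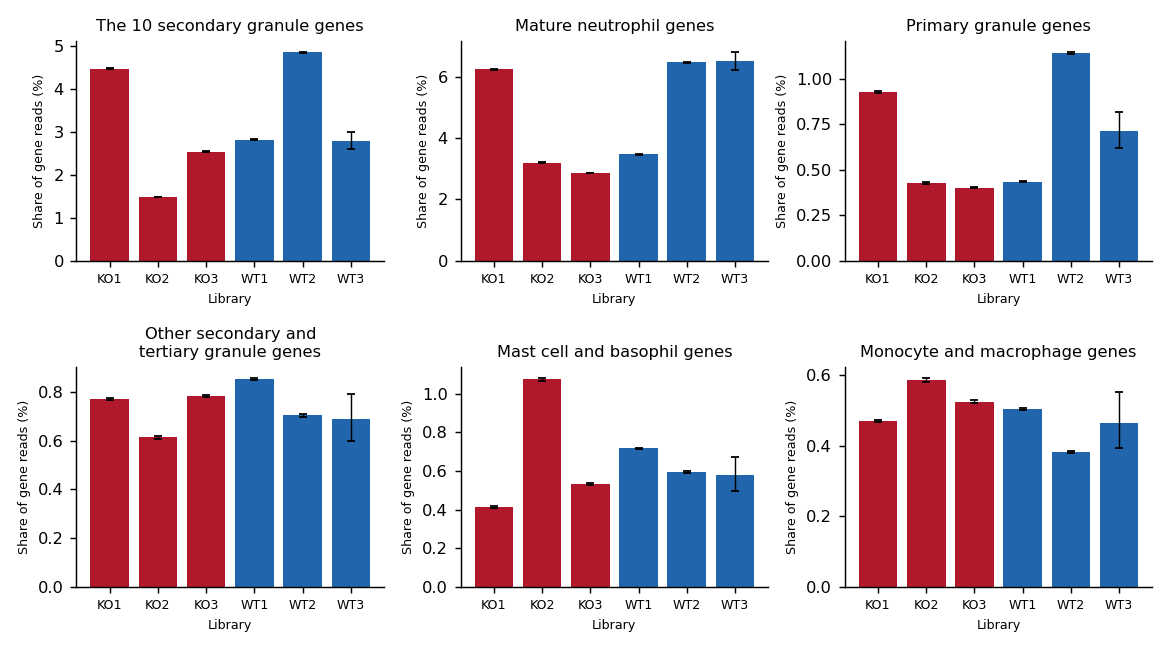
Share of gene reads (%) of 6 gene lists in KO replicates 1 to 3 (red, KO1 to KO3) and WT replicates 1 to 3 (blue, WT1 to WT3), with 95% Wilson intervals that cover counting error only. Among the deep libraries the 10 secondary granule genes, the mature neutrophil genes and the primary granule genes are highest in KO replicate 1 and WT replicate 2, the mature neutrophil share of WT replicate 3 is as high (6.51%), and mast cell and basophil genes are highest in KO replicate 2.

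Other lineages were scarce. Erythroid genes took at most 0.0466% of gene reads, in WT replicate 3, and 0.00218% to 0.0163% in the deep libraries (7 tested, 0 called, median -0.71, Car2, Hbb-bs and Hbb-bt at -0.71, -0.79 and -1.14, the globins sharing reads with their copies). Megakaryocyte genes took 0.0564% to 0.0949% (7 tested, 0 called, median -0.07, Itga2b, Vwf and Pf4 at 0.44, 0.82 and -0.36). Dendritic cell genes took 0.0312% to 0.0616% (5 tested, 0 called, median 0.65, Cd74, Itgax and H2-Aa at 0.04, 0.97 and 0.65), highest in KO replicate 2. Lymphoid genes took 0.0210% to 0.0525%, nearly all from the granzyme gene Gzmb, with Cd3e, Cd3g and Ms4a1 at 0 reads in the deep libraries (3 tested, 0 called, median -0.99, Gzmb, Cd79b and Cd247 at -0.30, -0.99 and -1.47). Stromal and endothelial genes took 0.000991% to 0.00304% in the deep libraries and 0.0179% in WT replicate 3 (1 tested, 0 called, Col1a1 at 0.64).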

How the data were processed

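Stranded messenger RNA libraries (TruSeq) were counted per gene. The deposited counts are whole-number read counts of uniquely mapped reads, in 7 files for 6 samples, in the format of STAR gene counts. STAR 2.5.1b, DESeq2 and build GRCm38 are listed in the submitters' processing notes, without saying what DESeq2 did. The annotation release is also not given in the sources used. Column 4, which held 95.6% to 97.5% of stranded gene reads, was used, and both runs of WT replicate 3 were summed. Rows that name no gene (25.6% to 47.8% of reads) were left out. Genes were matched by identifier without its version (46488 of 46983) to GENCODE M21 symbols, coordinates and exon lengths, which include rare isoforms.

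The main test was the two-sided quasi-likelihood test of edgeR 4.0.16 (robust glmQLFit and glmQLFTest) after filterByExpr and TMM scaling. Genotype was its single term, and calls needed a Benjamini-Hochberg adjusted p below 0.05. Standard errors are the log2 fold change over the root of F, and 95% intervals use the total degrees of freedom of the fit. DESeq2 1.42.0 and limma 3.58.1 were alternatives. Profiles used log2(CPM + 1).

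The members and gene lists were chosen with earlier results of these data known. All 10 genes are named, with Psip1, the 3 most read tested genes of each list, and the 8 genes of at least 10 CPM nearest to the mean profile. Mmp9, Ceacam10, Lrg1, Qsox1, Ceacam1, Cebpe, Gfi1, Lef1, Slc22a17, Lyz1, Chil4 and untested genes were named after their values were seen. So were Mmp8, Slpi, Adam8, Olfm4 and Fpr1.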

Additional observations from a re-analysis of the deposited data

How the results depend on the processing

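Of the 10 genes 0 were called in any of the 17 alternatives, with adjusted p from 0.872 to 1. Over all genes the count of calls, 0 in the reported fit (178 at an unadjusted p below 0.05), was 2 with library size only, 9 without a low-count filter, 1 with DESeq2, 4 with the Xist class as a term, 12 with DESeq2 and WT replicate 3 left out, and 0 to 5 when edgeR left out 1 library. With the replicate number as a block edgeR called 13 genes. The labels name no pairing by number. Deviations of same-numbered libraries from their group means correlated at -0.29, -0.03 and -0.15. These values cannot decide whether samples were paired, because each mean rests on 3 libraries and the shallow WT replicate 3 is among them. DESeq2's median over all 22237 genes was -0.32. The signs of Lcn2 and Fcnb held in all alternatives (-0.77 to -0.20 and -1.47 to -0.22). Leaving out 1 library turned the sign of 8 genes, some of them in more than 1 of these fits. The ranges were -1.47 to 0.033 for Ltf, -0.99 to 0.063 for Camp, -1.09 to 0.21 for Ngp, -0.92 to 0.69 for Cd177, -0.61 to 0.57 for Chil3, -0.59 to 0.17 for Pglyrp1, -0.18 to 1.26 for Lyz2 and -0.50 to 1.11 for Ly6g. Without KO replicate 1 Ltf and Fcnb had unadjusted p of 0.0400 and 0.0235. DESeq2 without WT replicate 3 gave 0.052 for Camp and -0.16 for Lyz2. The cause was not tested. With 27909 reads, WT replicate 3 limits Cd177, Fcnb and Ly6g most, at 10, 4 and 6 reads.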
